A study of Mus musculus with 4 samples.

Results

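The collagen gene family was followed in cardiomyocytes grown from mouse embryonic stem cells after transfection with a small interfering RNA against Erbb4. The family was taken as all genes whose symbol reads Col, digits, the letter a and digits, which gave 44 genes in the mouse RefSeq annotation. Of these, 43 were read by at least 1 named probe of the array, and 28 passed the filter on dim probes and were tested among 20726 features in all. The tested genes were 8 of 11 fibrillar collagens, 5 of 6 basement membrane collagens, 6 of 9 fibril-associated collagens with interrupted helices (FACITs), 3 of 6 beaded filament collagens, 1 of 3 short-chain network collagens, 1 of 4 transmembrane collagens, both multiplexins and 2 of 3 remaining genes. Where a gene had several probes, the brightest was used.

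The siErbB4 group held cardiomyocytes differentiated from CGR8, an embryonic stem cell line of the mouse, and transfected for 48 hours with the RNA against Erbb4, which encodes a neuregulin receptor of the epidermal growth factor receptor family. The siScr group was the same kind of cells given a scrambled RNA for as long. All cells were kept in medium with 2% serum, and total RNA of 2 samples per group was hybridised to 4 Agilent 1-colour arrays on 1 slide. The labels do not say whether the samples were separate cultures, so the p-values below rest on a spread between samples that may be technical. Precision is limited by having 4 arrays. The groups follow the sample titles and the transfection field, although other label fields disagree: the descriptions of the siErbB4 samples mention the scrambled RNA, and ErbB5 stands in the source name of siErbB4 replicate 2. Incubation is labelled as 6 or 24 hours, with no word on which samples had which.

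The Erbb4 probe had a processed signal of 2.83 and 15.0 in the siErbB4 arrays, against 9.02 and 11.9 in the siScr arrays, and only siErbB4 replicate 2 had it well above background. It therefore could not check the knockdown, and every direction below follows the labels alone. Arrays had 75th percentiles of 878 to 989, with 64.8% to 68.5% of their probes well above background. The cells were labelled cardiomyocytes, and all 10 listed cardiomyocyte markers, Tnnt2, Myh6 and Nkx2-5 among them, passed the filter on dim probes. Markers of other cell types did so too, and their values are given with the collagens they move with.

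Collagens are secreted proteins of the extracellular matrix in which a trio of alpha chains winds into a helix. Fibrillar collagens assemble into the cross-linked fibres that carry tension, basement membrane collagens form the sheet-like network around muscle cells, vessels and epithelia, and the other classes decorate fibres, form finer filaments or span the cell membrane. In the heart, fibroblasts are the main source of fibrillar collagen, and cardiomyocytes are each wrapped in a basement membrane. Every signal below is the processed intensity divided by the 75th percentile of its array, so 1 stands for that percentile, and differences are on the log2 scale of this ratio. Probes differ in how brightly they read, so a gene is compared only with itself across the arrays.

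Across the family, collagen signals were lower in the siErbB4 than in the siScr arrays at 26 of 28 tested genes, but no gene passed the test. Signals were lower in the siErbB4 arrays at 10953 of all 20726 features. The median log2 difference (siErbB4 minus siScr) was -0.44 over the 28 genes, beside -0.01 over all features. With limma and Benjamini-Hochberg adjustment, 0 of 28 collagen genes were called at an adjusted p under 0.05, against 0% of all features, and 0 had an unadjusted p under 0.05, against 1.76% of all features. The lowest unadjusted limma p of a collagen gene was 0.0537, at Col4a2, and every adjusted p was 1.00 after rounding. Both siErbB4 arrays lay below both siScr arrays at 7 collagen genes, where this held for 15.9% of all features, and both lay above at 0, where the background was 13.0%.

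The size of the difference depended on which arrays were used, siScr replicate 1 among them. That array had the highest signal of the 4 at 23 of the 28 collagen genes, beside 29.2% of all features. Without it, 15 of 28 genes had a negative difference and the family median was -0.09. With each array left out in turn, the family median ranged from -0.82 to -0.09. Taking from each gene its mean over the 4 arrays, the family medians were -0.01 and -0.42 in replicates 1 and 2 of the siErbB4 group, against 0.61 and -0.19 in those of the siScr group. The siErbB4 and siScr arrays therefore overlapped, and an exact two-sided permutation test of these array medians gave p = 0.667, where arrays of this number allow no p below 0.333.

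**Figure D1:**
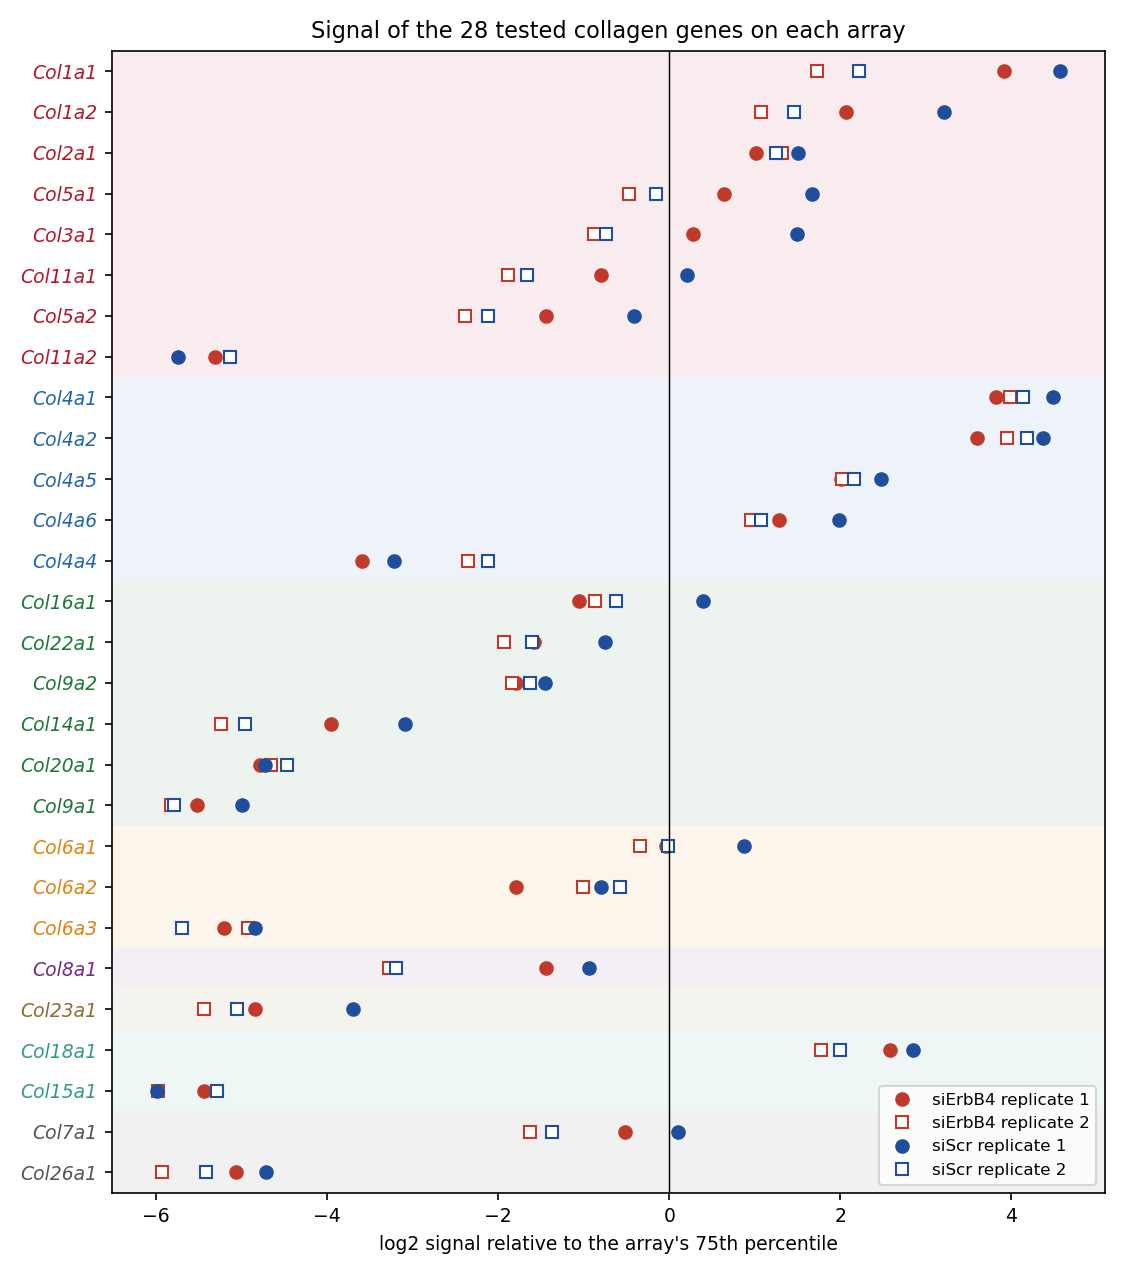
The horizontal axis is the log2 signal relative to the array's 75th percentile, and each row is a tested collagen gene, coloured by class, with red marks for siErbB4 arrays and blue marks for siScr arrays (filled circles replicate 1, open squares replicate 2). The blue filled circle, siScr replicate 1, is the rightmost mark at 23 of the 28 genes, and at 6 of the 8 fibrillar genes both filled circles lie right of both open squares.

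At 6 of the 8 fibrillar collagens, both replicate 1 arrays lay above both replicate 2 arrays, a larger split than that between the groups. Slide positions were 4 and 2 for siErbB4 replicates 1 and 2, and 3 and 1 for siScr replicates 1 and 2. Replicate number and slide position therefore cannot be told apart. Col1a1, which encodes the main chain of type I collagen, the principal tension-bearing collagen of connective tissue, had a signal of 15.1 and 3.31 in siErbB4 replicates 1 and 2, against 23.7 and 4.67 in siScr replicates 1 and 2. Replicate 1 was thus 4.57-fold above replicate 2 in the siErbB4 group and 5.07-fold above it in the siScr group, while the log2 difference between the groups was -0.57 with a standard error (SE) of 1.13. Col1a2, the partner chain of type I collagen, had 4.20 and 2.11 in the siErbB4 arrays, against 9.24 and 2.74 in the siScr arrays. Its siErbB4 replicate 1 lay above siScr replicate 2, so the groups overlapped, and the difference of -0.76 (SE 0.72) was the most negative of the class.

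Col3a1, the sole chain of type III collagen, which mixes into type I fibres in distensible tissue, followed the same order, with 1.22 and 0.543 in the siErbB4 arrays, against 2.82 and 0.599 in the siScr arrays. Its difference between the groups was -0.68 (SE 0.89). Type V collagen, which starts and limits fibre growth, is encoded by Col5a1 and Col5a2 in most tissues. Col5a1 had 1.55 and 0.720 in the siErbB4 arrays, against 3.19 and 0.897 in the siScr arrays (difference -0.68, SE 0.76). Col5a2, the next protein-coding gene to Col3a1 on chromosome 1, had 0.369 and 0.192 in the siErbB4 arrays, against 0.754 and 0.229 in the siScr arrays (difference -0.64, SE 0.70). Col11a1, a chain of the minor fibrillar collagen of cartilage that is also made elsewhere, had 0.574 and 0.271 in the siErbB4 arrays, against 1.16 and 0.315 in the siScr arrays (difference -0.61, SE 0.77). These 6 genes shared 1 order of arrays, with siScr replicate 1 highest, then siErbB4 replicate 1, siScr replicate 2 and siErbB4 replicate 2.

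The other fibrillar genes did not share that order. Col2a1, the chain of the cartilage fibre, had 2.02 and 2.49 in the siErbB4 arrays, against 2.83 and 2.37 in the siScr arrays, with overlapping groups (difference -0.21, SE 0.19, the lowest p of the class at 0.322 by limma, unadjusted). Col11a2 was the fibrillar gene with a positive difference, 0.21 (SE 0.25), from dim signals of 0.0251 and 0.0284 in the siErbB4 arrays, against 0.0187 and 0.0284 in the siScr arrays. Over the 8 fibrillar genes the median difference between the groups was -0.63, and it turned to 0.23 when siScr replicate 1 was left out. Col5a3, Col24a1 and Col27a1 were too dim to test.

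The promoter stretches of some of these genes are shown because the genes moved together across the arrays in a way that Col4a5, a basement membrane gene, did not. RefSeq promoters on build GRCm38.p6 were at hand for 35 of the 44 genes, 38 promoters in all, and the 250 bases before each start were searched on both strands for the CCAAT box, for TATAAA and for the GC box GGGCGG. Capitals mark the matches. Col1a2 lies at chr6:4505368-4505617, Col3a1 at chr1:45311288-45311537, Col11a1 at chr3:114030290-114030539 and Col4a5 at chrX:141475169-141475418, all on the plus strand.
Col1a2: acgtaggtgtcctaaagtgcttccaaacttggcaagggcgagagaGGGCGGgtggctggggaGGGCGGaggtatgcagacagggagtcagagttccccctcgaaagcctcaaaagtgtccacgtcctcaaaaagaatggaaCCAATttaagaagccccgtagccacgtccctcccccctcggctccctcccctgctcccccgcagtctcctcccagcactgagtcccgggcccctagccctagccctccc
Col3a1: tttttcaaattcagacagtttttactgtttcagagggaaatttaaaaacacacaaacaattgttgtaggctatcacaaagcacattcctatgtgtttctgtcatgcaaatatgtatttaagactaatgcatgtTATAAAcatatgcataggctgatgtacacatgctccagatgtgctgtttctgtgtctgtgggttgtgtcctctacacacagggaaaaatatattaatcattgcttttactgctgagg
Col11a1: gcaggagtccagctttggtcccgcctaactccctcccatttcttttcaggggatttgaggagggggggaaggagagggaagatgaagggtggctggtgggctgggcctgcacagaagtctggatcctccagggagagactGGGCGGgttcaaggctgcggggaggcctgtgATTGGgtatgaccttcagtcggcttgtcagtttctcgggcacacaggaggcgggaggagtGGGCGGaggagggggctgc
Col4a5: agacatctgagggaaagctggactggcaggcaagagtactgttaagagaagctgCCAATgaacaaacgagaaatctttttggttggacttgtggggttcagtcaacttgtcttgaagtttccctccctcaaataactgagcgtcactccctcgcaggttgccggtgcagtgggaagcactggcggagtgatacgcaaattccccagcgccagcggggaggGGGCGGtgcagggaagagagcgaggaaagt
Col1a2 held a CCAAT box beginning at position -109 from the start and GC boxes at -205 and -188. Col11a1 held a CCAAT box at -79, read on the opposite strand, and GC boxes at -110 and -19, and Col4a5 a CCAAT box at -196 and a GC box at -30. Col3a1 held only TATAAA, at -117. No marked matches overlap in these 4 stretches. The 8 fibrillar promoters searched were those of Col1a2, Col3a1, Col5a1, Col11a1 and Col11a2, and of Col5a3, Col24a1 and Col27a1, which were too dim to test. GGGCGG was present in 6 of 8 fibrillar promoters, 3 of 5 basement membrane promoters and 13 of 25 promoters of the other classes, beside 32.7% of 32851 promoters of the annotation. CCAAT was present in 3 of 8, 3 of 5 and 7 of 25 of them, beside 33.8% of all promoters, and TATAAA in 2, 0 and 3, beside 12.4%. These matches describe the letters in these windows and nothing of what binds there.

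Between the replicates, collagen genes of several classes differed by more than 2-fold. In the siErbB4 group, replicate 2 was at least 2-fold below replicate 1 at 7 of the 28 collagen genes and at least 2-fold above it at 1, beside 2.36% and 2.72% of all features. In the siScr group these counts were 11 and 1, beside 3.78% and 3.27%. All 7 genes of the siErbB4 group were also among the 11 of the siScr group, and 1.62% of all features were 2-fold lower in replicate 2 of both groups. They were Col1a1, Col3a1, Col5a1, Col11a1, Col14a1, Col8a1 and Col7a1. For Col14a1 this held for its brightest probe only. Its other probe, also well above background on all 4 arrays, differed by less than 2-fold between replicates. On the log2 scale it read -5.29 and -5.49 in the siErbB4 arrays, against -4.70 and -5.43 in the siScr arrays. Each comparison is 1 array against 1 and has no test. Both replicate 1 arrays lay above both replicate 2 arrays at 15 collagen genes, beside 26.0% of all features. By class, the median log2 difference of replicate 2 minus replicate 1 was -1.04 in the siErbB4 group and -1.79 in the siScr group for the fibrillar genes, 0.16 and -0.31 for the basement membrane genes, and -0.35 and -0.86 for the 15 genes of the other classes. Over all features it was -0.01 and 0.04.

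**Figure D2:**
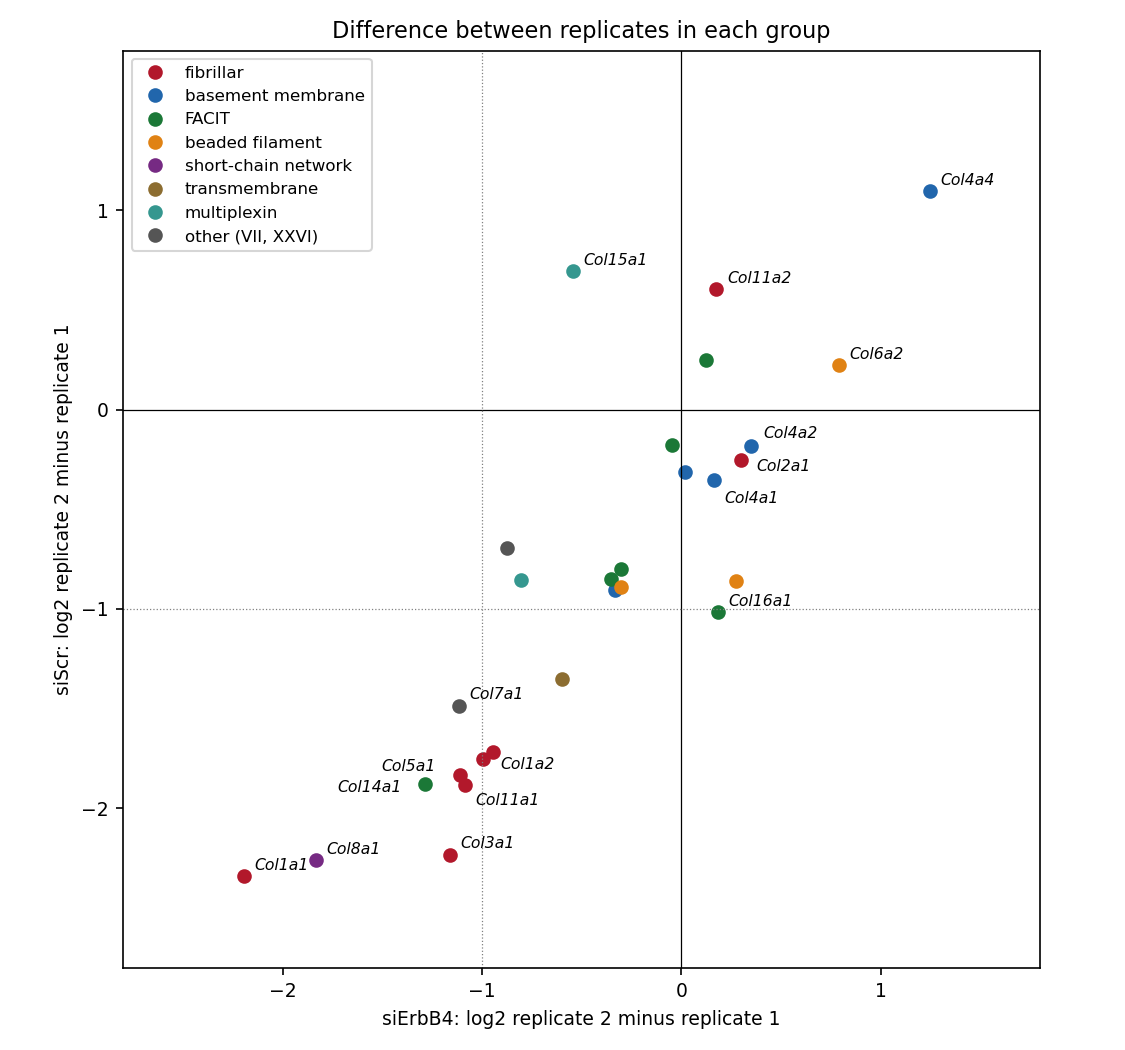
Each point is a tested collagen gene, with its log2 difference of replicate 2 minus replicate 1 in the siErbB4 group on the horizontal axis and in the siScr group on the vertical axis; the dotted lines mark a 2-fold lower signal in replicate 2. Col1a1, at -2.19 and -2.34, and Col8a1, at -1.83 and -2.26, lie farthest to the lower left. Col4a4, the gene at least 2-fold higher in replicate 2 of both groups by its brightest probe but not by its second, lies farthest to the upper right.

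Apart from Col4a4, the tested basement membrane collagens differed by less than 2-fold between replicates. At 3 of the 5 tested genes both siErbB4 arrays lay below both siScr arrays, as they did at 15.9% of all features. Col4a1 and Col4a2 encode the chains of the common type IV network and lie next to each other on chromosome 8. Signals of Col4a1 were 14.2 and 15.8 in the siErbB4 arrays, against 22.5 and 17.6 in the siScr arrays, and the groups differed by -0.41 on the log2 scale (SE 0.19; 95% interval, -0.92 to 0.10). Col4a2 had 12.1 and 15.4 in the siErbB4 arrays, against 20.6 and 18.2 in the siScr arrays (difference -0.50, SE 0.19). The arrays fell in the same order for both neighbours, with siErbB4 replicate 1 lowest and siScr replicate 1 highest.

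The X-linked neighbours Col4a5 and Col4a6 encode chains of the type IV networks of kidney, smooth muscle and some epithelia. Col4a5 had 4.03 and 4.07 in the siErbB4 arrays, against 5.56 and 4.48 in the siScr arrays (difference -0.30, SE 0.17). Col4a6 had 2.44 and 1.94 in the siErbB4 arrays, against 3.96 and 2.11 in the siScr arrays, so its groups overlapped (difference -0.41, SE 0.36, and -0.27 from its other probe). With the arrays left out in turn, Col4a1, Col4a2 and Col4a5 remained negative. Their differences of 0.30 to 0.50 in size did not pass the limma test, in which all had an adjusted p of 1.00.

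Col4a4, a chain of the network of the kidney filter, ran the other way between replicates by its brightest probe. Its signal was 0.0827 and 0.196 in the siErbB4 arrays, against 0.107 and 0.230 in the siScr arrays, so both replicate 2 arrays lay above both replicate 1 arrays (difference between groups -0.30, SE 0.60). A second probe, well above background on all 4 arrays, did not repeat this. On the log2 scale it read -4.72 and -4.35 in the siErbB4 arrays, against -3.91 and -4.24 in the siScr arrays. By that probe replicate 2 was the lower array of the siScr group, replicates differed by less than 2-fold, and the groups did not overlap (difference -0.46). Col4a3, the neighbour of Col4a4 that encodes another chain of the same network, was well above background on both replicate 2 arrays but on neither replicate 1 array. The processed signals of Col4a3 were 7.07 and 25.9 in the siErbB4 arrays, against 6.85 and 28.1 in the siScr arrays. It did not pass the filter on dim probes, which asks for both arrays of a group, and was not tested.

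**Figure D3:**
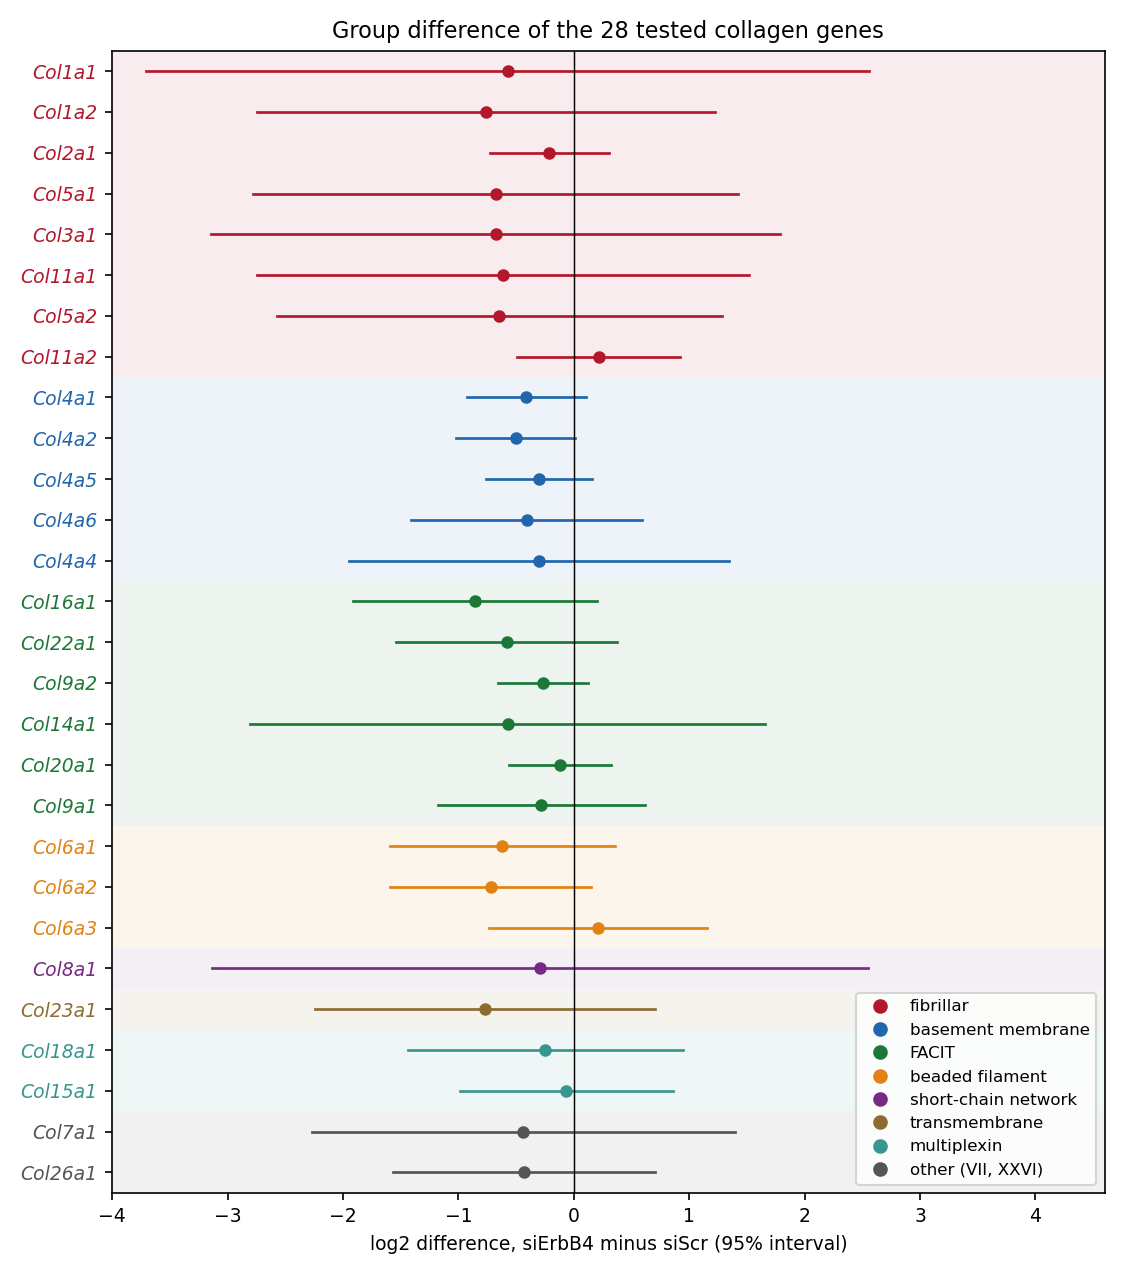
Points are limma's log2 differences, siErbB4 minus siScr, and bars are their 95% intervals, for the 28 tested collagen genes coloured by class. All intervals include 0, 26 of 28 points lie left of 0, and the bars of Col1a1 (-3.70 to 2.55) and Col8a1 (-3.13 to 2.55) are wide beside that of Col4a2 (-1.02 to 0.01).

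Among FACITs, which bind to the surface of fibres, Col16a1 had the most negative group difference of the family. Its signal was 0.481 and 0.546 in the siErbB4 arrays, against 1.32 and 0.651 in the siScr arrays (difference -0.85, SE 0.38). The groups did not overlap. A second probe, well above background on all 4 arrays, gave -0.70, and the remaining probe was too dim in both siErbB4 arrays to give a value. Without siScr replicate 1 the difference of Col16a1 was -0.35, and that of Col6a2, at -0.83, was more negative. Col14a1, which regulates fibre width in skin and tendon, followed the fibrillar genes, with 0.0644 and 0.0264 in the siErbB4 arrays, against 0.118 and 0.0320 in the siScr arrays (difference -0.57, SE 0.81).

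Col22a1, a collagen of tissue junctions, gave -0.58 (SE 0.35). Col9a2, from cartilage collagen IX, gave -0.27 (SE 0.14) with groups that did not overlap, at 0.289 and 0.280 in the siErbB4 arrays, against 0.365 and 0.322 in the siScr arrays. Col20a1 had 0.0363 and 0.0396 in the siErbB4 arrays, against 0.0379 and 0.0449 in the siScr arrays (difference -0.12, SE 0.16), and 0.07 from its dimmer probe. Col9a1 gave -0.28 (SE 0.32) from its brightest probe. Its other probe, not well above background on siScr replicate 1, gave 0.77, with both siErbB4 arrays above both siScr arrays. Col9a3 and Col19a1 were too dim to test, and no probe was named Col12a1. Over the 6 FACIT genes the median difference was -0.43.

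Type VI collagen forms beaded filaments that link cells to the matrix around them. Col6a1 had 0.977 and 0.792 in the siErbB4 arrays, against 1.84 and 0.992 in the siScr arrays (difference -0.62, SE 0.35). Col6a2, the neighbour of Col6a1 on chromosome 10, had 0.288 and 0.497 in the siErbB4 arrays, against 0.576 and 0.673 in the siScr arrays (difference -0.72, SE 0.31). The groups did not overlap at either gene, but replicate 2 was the lower array of each group for Col6a1 and the higher for Col6a2. Col6a3, which encodes the longest of the common type VI chains, had dim signals of 0.0271 and 0.0328 in the siErbB4 arrays, against 0.0348 and 0.0192 in the siScr arrays. Its difference of 0.21 (SE 0.34) was -0.02 with normexp background correction. Col6a4, Col6a5 and Col6a6 were too dim to test.

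The remaining tested genes came from small classes. Col8a1, a short-chain collagen of vessel walls, had 0.367 and 0.103 in the siErbB4 arrays, against 0.521 and 0.109 in the siScr arrays, so replicate 1 was 3.56-fold and 4.79-fold above replicate 2 (difference between groups -0.29, SE 1.03). Col7a1, whose product anchors the epidermal basement membrane to the tissue below, had 0.700 and 0.323 in the siErbB4 arrays, against 1.08 and 0.385 in the siScr arrays (difference -0.44, SE 0.66). Col23a1, a transmembrane collagen, had 0.0349 and 0.0230 in the siErbB4 arrays, against 0.0769 and 0.0301 in the siScr arrays (difference -0.77, SE 0.53).

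Col18a1, a basement membrane multiplexin that carries heparan sulfate chains and releases the fragment endostatin, had 5.96 and 3.42 in the siErbB4 arrays, against 7.21 and 3.98 in the siScr arrays. Replicate 1 was 1.75-fold above replicate 2 in the siErbB4 group and 1.81-fold above it in the siScr group, while the groups differed by -0.25 (SE 0.43). Col15a1, the related multiplexin of muscle and vessel basement membranes, had 0.0231 and 0.0158 in the siErbB4 arrays, against 0.0157 and 0.0255 in the siScr arrays (difference -0.07, SE 0.33). Col26a1 had 0.0299 and 0.0163 in the siErbB4 arrays, against 0.0379 and 0.0235 in the siScr arrays (difference -0.43, SE 0.41). Col8a2, Col10a1, Col13a1, Col17a1, Col25a1 and Col28a1 were too dim to test. None of the 15 untested genes with a probe was well above background on more than 2 arrays.

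Enzymes and partners of collagen were read from a list of 52 genes, of which 48 were tested. None was called by limma with Benjamini-Hochberg adjustment, against 0% of all features, and 0 had an unadjusted p under 0.05, against 1.76%. The difference between the groups was negative at 42 and positive at 6 of them, beside 10953 negative of all 20726 features. The median difference was -0.21, and 26 of the 48 were negative without siScr replicate 1. In siScr replicate 1, 35 of the 48 genes were highest, beside 29.2% of all features. Among the 15 hydroxylases and other proteins of collagen modification in the endoplasmic reticulum, 14 were negative, beside 10953 of all 20726 features. At 6 of the 15, both siErbB4 arrays lay below both siScr arrays, beside 15.9% of all features. P3h1, a prolyl 3-hydroxylase, had 0.934 and 0.940 in the siErbB4 arrays, against 1.35 and 1.15 in the siScr arrays (difference -0.41, SE 0.15). Plod1, a lysyl hydroxylase, gave -0.33 (SE 0.14).

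The collagen chaperone and secretion genes lay closer to 0. Over 7 of them the median difference was -0.11. Their genes with the lowest p were Sec23a, of the secretory vesicle coat, at -0.16 (SE 0.14) and Mia3, which loads procollagen into vesicles, at -0.11 (SE 0.14). Processing and crosslinking genes were split between replicates in the way of the fibrillar collagens: the median of replicate 2 minus replicate 1 was -0.56 in the siErbB4 group and -1.15 in the siScr group over 11 genes. The lowest p there were those of Pcolce, an enhancer of procollagen cleavage, with 40.9 and 41.6 in the siErbB4 arrays, against 51.1 and 52.6 in the siScr arrays (difference -0.33, SE 0.13), and of Adamts14, a procollagen protease, at -0.45 (SE 0.36). Adamts2, the main protease that trims the amino end of procollagen I and was named after its values were seen, had 1.27 and 0.221 in the siErbB4 arrays, against 2.18 and 0.202 in the siScr arrays.

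Among receptors and turnover genes, with a median of -0.27 over 7, the collagen receptor gene Ddr2 had 0.0523 and 0.0726 in the siErbB4 arrays, against 0.0913 and 0.0814 in the siScr arrays (difference -0.49, SE 0.22), and the integrin gene Itgb1 gave -0.22 (SE 0.22). Proteoglycans and glycoproteins of the fibre surface had a median of -0.19 over 8 genes, with Tnxb at -0.20 (SE 0.14) and Fmod at -0.32 (SE 0.23). Ddr2, Dcn and Lum are also in the fibroblast marker list below.

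Markers of other cell types moved with the collagens between the arrays. Of 9 fibroblast markers 7 were tested, and all 7 were highest in siScr replicate 1. Their summed signal was 2.14 and 1.12 in the siErbB4 arrays, against 3.46 and 1.10 in the siScr arrays, and Tcf21 and Dpt were too dim to test. Of 7 cartilage markers 4 were tested, with a summed signal of 0.638 and 0.177 in the siErbB4 arrays, against 0.969 and 0.192 in the siScr arrays, and the defining genes Matn1, Matn3 and Cnmd were too dim to test. Of 5 smooth muscle markers 4 were tested, with sums of 429 and 241 in the siErbB4 arrays, against 541 and 248 in the siScr arrays, while Myh11 was too dim. A sum is set mostly by its brightest probes, so the genes are counted too. Both replicate 1 arrays lay above both replicate 2 arrays at 6 of the 7 fibroblast markers, 3 of the 4 cartilage markers and 2 of the 4 smooth muscle markers. This held for 26.0% of all features, and 1 smooth muscle marker, Smtn, went the opposite way. Endothelial markers, 4 of 5 tested with Tie1 too dim, summed to 3.28 and 3.46 in the siErbB4 arrays, against 3.36 and 4.49 in the siScr arrays. That sum is set by Kdr, and 3 of the 4 endothelial genes were lower in replicate 2 of both groups and highest in siScr replicate 1, with medians of replicate 2 minus replicate 1 of -0.23 in the siErbB4 group and -0.74 in the siScr group.

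Cardiomyocyte markers ran the opposite way. Their summed signal over 10 genes was 869 and 1010 in the siErbB4 arrays, against 890 and 1104 in the siScr arrays. At 9 of the 10 both replicate 2 arrays lay above both replicate 1 arrays, beside 6091 of all 20726 features. Endoderm markers, 5 of 6 tested with Apoa1 too dim, summed to 16.1 and 19.2 in the siErbB4 arrays, against 16.4 and 19.0 in the siScr arrays. Epithelial markers, all 5 tested, summed to 52.9 and 55.5 in the siErbB4 arrays, against 44.5 and 49.2 in the siScr arrays. Pluripotency markers, all 4 tested, summed to 34.1 and 24.9 in the siErbB4 arrays, against 21.1 and 21.8 in the siScr arrays. Groups did not overlap, siErbB4 being higher, at 3 of 5 epithelial and 2 of 4 pluripotency markers, beside 13.0% of all features. The groups overlapped at the rest of both lists, and no gene of either had an unadjusted limma p under 0.05. Blood markers, 2 of 4 tested with Ptprc too dim and no probe named Cd68, summed to 5.87 and 5.85 in the siErbB4 arrays, against 6.45 and 6.89 in the siScr arrays. That sum is set by Itgam, while Lyz2 had 0.0756 and 0.842 in the siErbB4 arrays, against 0.119 and 0.954 in the siScr arrays, and was higher in replicate 2 of both groups. In RNA of whole cultures, fewer cells of a type and less RNA per cell cannot be told apart, and the part of these cell types in the collagen values was not tested.

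**Figure D4:**
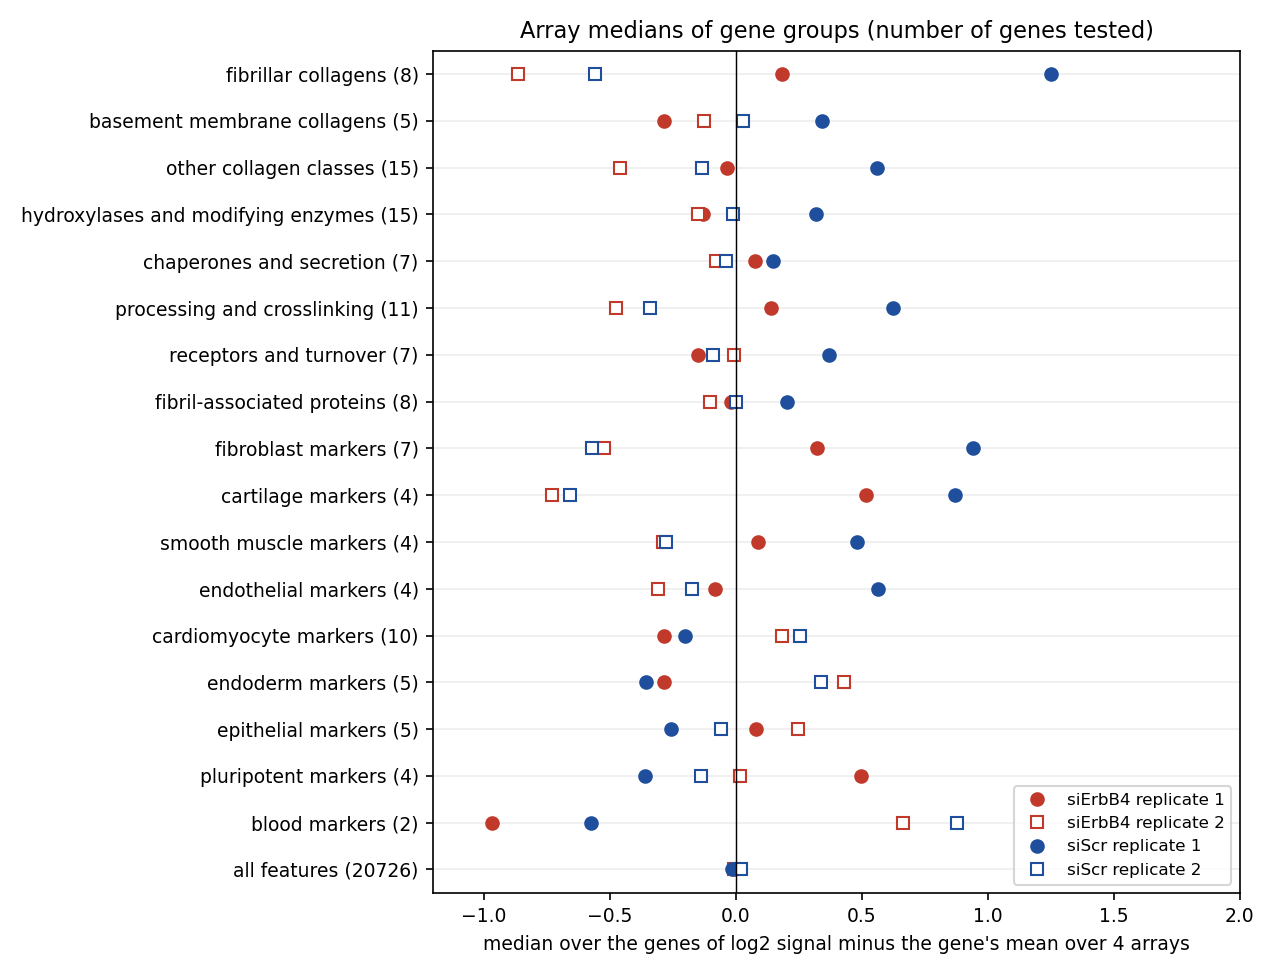
For each gene group the mark is the median over its tested genes of the log2 signal minus the gene's own mean over the 4 arrays (red siErbB4, blue siScr; filled circles replicate 1, open squares replicate 2). Fibrillar collagens, at 0.18 and -0.86 in the siErbB4 arrays and 1.25 and -0.56 in the siScr arrays, are ordered by array as the fibroblast and cartilage markers are, except that the replicate 2 squares of the fibroblast markers change places, and cardiomyocyte markers, at -0.28 and 0.18 in the siErbB4 arrays and -0.20 and 0.26 in the siScr arrays, have both filled circles on the left.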

How the data were processed

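Total RNA of 4 samples was labelled with Cy3 from 200 ng and read on Agilent arrays, per the labels' protocols. Per the file headers and the submitters' processing notes, the deposited intensities come from Agilent Feature Extraction 10.7.1.1, which subtracted background and detrended each array without scaling between arrays. Control types and flags for dim, saturated or outlying spots were other values per the file headers. Setting the authors' deposited log2 table against the scanner values showed it to be log2 processed signal centred on each array's 75th percentile (largest difference 0.00291), so its scale, centring and direction are known.

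Control and outlier spots (131 to 179 per array) were left out, 0 spots were saturated, and spots of a probe were averaged. A probe was kept where both arrays of either group flagged it well above background (25690 of 39429 probes). Of all probes, 27508 were named by unversioned RefSeq accession through GRCm38.p6, and 11921 stayed unnamed. The array's own annotation names another build, so coordinates are given only for RefSeq promoters. The brightest kept probe stood for a gene.

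The group difference was fitted by limma 3.58.1 under R 4.3.3 with lmFit and eBayes (two-sided, Benjamini-Hochberg over 20726 features, threshold 0.05; 2 residual and 2.06 prior degrees of freedom). The fit was also run on simulated data with independent noise, and no result here rests on that run. Intervals are 95% intervals. Scans of the 4 arrays came from 1 slide. The alternatives were normexp (offset 50), quantile normalization, the deposited table, other filters, the mean of probes and each array left out. The replicate number as a block was another. Normexp was run on median signals, in place of the planned mean signals. Collagen classes, the biosynthesis list and the marker lists are textbook groupings. Values on all arrays are given for the 12 collagen genes of highest processed signal, the 5 most positive and 5 most negative differences, the 5 largest replicate differences and the lowest p of each class, with some others of each class added after their values were seen. From the biosynthesis list, the lowest p are named, 2 per subgroup. The members and lists were chosen with earlier results of these data known.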

Additional observations from a re-analysis of the deposited data

How the results depend on the processing

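Counts of called genes were 0 for the collagen family and for all features under all 11 alternatives. Leaving out 1 array sets 2 arrays of 1 group against 1 of the other. A difference between replicates, such as that of Col1a1, then enters the group difference and can turn its sign. The family median stayed negative, at -0.82 to -0.09 with each array left out, as did the basement membrane median (-0.59 to -0.23) and that of the other classes (-0.78 to -0.09), while the fibrillar median ranged from -1.57 to 0.23, the positive value being that without siScr replicate 1. The number of collagen genes with a negative difference was 15 to 25 of 28 and that of biosynthesis and receptor genes 26 to 42 of 48 over the arrays left out, an alternative chosen after seeing the data. With normexp, the difference of replicate 2 minus replicate 1 in the siScr group was -0.60 over the family and -0.47 over the other classes, and Col6a3 turned to -0.017 between the groups, as Col9a1 did to 0.25 with the mean of its probes; the cause was not tested. The sign turned when 1 array was left out at 18 of the 28 tested collagen genes, which were Col1a1 (-1.74 to 0.60), Col1a2 (-1.64 to 0.12), Col3a1 (-1.79 to 0.44), Col5a1 (-1.59 to 0.24), Col11a1 (-1.56 to 0.33), Col11a2 (-0.088 to 0.52), Col14a1 (-1.51 to 0.37), Col8a1 (-1.42 to 0.84), Col18a1 (-0.68 to 0.18), Col15a1 (-0.41 to 0.28), Col20a1 (-0.24 to 0.0026), Col26a1 (-0.87 to 0.0055), Col4a6 (-0.86 to 0.044), Col4a4 (-0.93 to 0.32), Col5a2 (-1.50 to 0.22), Col7a1 (-1.18 to 0.30), Col9a1 (-0.68 to 0.12) and Col6a3 (-0.22 to 0.64). The other 10 stayed negative but varied in size: Col16a1 (-1.36 to -0.35), Col22a1 (-1.004 to -0.15), Col23a1 (-1.44 to -0.09), Col2a1 (-0.36 to -0.06), Col4a1 (-0.59 to -0.23), Col4a2 (-0.68 to -0.33), Col4a5 (-0.46 to -0.15), Col6a1 (-1.06 to -0.17), Col6a2 (-1.11 to -0.32) and Col9a2 (-0.36 to -0.18).

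With the replicate number as a block, 0 collagen genes and 0 features were called, with 14 of 28 collagen genes and 1546 of 20726 features at an unadjusted p under 0.05, and the lowest adjusted limma p of a collagen gene was 0.641 and the family median -0.44. Deviations of same-numbered arrays from their group means correlated at 0.679 across features, which are not independent, and 2 pairs do not show that the numbers mark shared cultures. Replicate numbers also went with slide position, and the part of either was not tested. With 2 arrays per group, and signals of the 16 untested collagen genes near background or without a named probe, the arrays limit what could be called.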
